A study of Mus musculus with 6 samples.

Results

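Microglia of the mouse cortex at postnatal day 5 (P5) were examined as the cells that carry the subtype Microglia in the authors' deposited annotation, 810 of 18393 cells. The annotation was made by clustering the same counts, and it separates microglia from the Ms4a7_high cells (45), border macrophages (12) and T cells (16) that were also annotated as immune. Microglia are the resident macrophages of the brain. They arise from yolk sac precursors, depend on signalling through the CSF1 receptor, survey the tissue with motile processes guided by purinergic and chemokine receptors, and take up dying cells and synapses with the help of complement and phagocytic receptors. In the first postnatal week they also multiply in the cortex. *Fmr1* encodes FMRP, an RNA-binding protein that regulates translation, and its loss is the cause of fragile X syndrome.

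Cortices of 3 wild type (WT) mice, FVB.129P2-Pde6b+ Tyrc-ch/AntJ, and of 3 *Fmr1* knockout (*Fmr1*-KO) mice, FVB.129P2-Pde6b+ Tyrc-ch Fmr1tm1Cgr/J, were dissociated with papain at P5, and both strains thus carry the same *Pde6b* and *Tyr* alleles. Both hemispheres and both sexes were used, and the disrupted allele is carried by every cell of the animal, not microglia alone. Transcripts were counted with InDrop, which tags each captured 3' end with a unique molecular identifier (UMI). The mice were collected with barcoding beads of version V2 (WT 1, *Fmr1*-KO 1 and *Fmr1*-KO 2) or V3.8 (WT 2, WT 3 and *Fmr1*-KO 3), and bead version and collection batch cannot be told apart.

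The WT mice gave 93, 170 and 198 microglia and the *Fmr1*-KO mice 111, 88 and 150, in the order of their numbers. The UMIs in microglia summed to between 243607 (*Fmr1*-KO 2) and 807509 (WT 3) per mouse, and the median microglial cell held between 1866 and 3588 UMIs. In *Fmr1*-KO 2, the 4 Y-linked genes counted summed to 8.21 CPM (UMIs of the gene divided by all UMIs of these cells and scaled to counts per 1e6) in microglia, against 176 to 354 CPM in the other mice. WT 3 held 39 of the 45 Ms4a7_high cells.

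Some cells of different libraries carried the same droplet barcode. Between libraries of the same mouse there were 3307 pairs of cells with the same barcode, and the subtype was the same in 3084 of them (93.3%). Of these pairs 90 included a microglial cell and both cells were microglia in 85. Between libraries of different mice there were 468 such pairs, of which 78 (16.7%) had the same subtype, and none of the 37 that included a microglial cell paired it with another one. In all, 123 microglia (15.2%) shared a barcode within their mouse, and 742 (91.6%) were left when each barcode was used once per mouse. The main results below are therefore also given with 1 cell per barcode. For the 35 genes named by their level, the level with 1 cell per barcode was between 0.968 and 1.02 times the level in all microglia.

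The label was first checked against 5 markers: *Cx3cr1*, the receptor for the neuronal chemokine fractalkine, *P2ry12*, an ADP receptor that guides microglial processes, *Csf1r*, the receptor for the survival factors CSF1 and IL-34, *C1qa*, a chain of the complement component C1q, and *Tmem119*, a membrane protein used to tell microglia from other macrophages. In GRCm38.p6 they lie at chr9:120048683-120068296 (*Cx3cr1*), chr3:59216271-59262985 (*P2ry12*), chr4:136895916-136898844 (*C1qa*) and chr5:113793729-113800396 (*Tmem119*), with *Csf1r* on chromosome 18. Because cells differed in depth, each was thinned at random to 700 UMIs, which kept 806 microglia. At that depth 95.3% of microglia held a UMI of at least 1 of the 5 genes, 76.1% of at least 3 and 6.95% of all 5. The share with at least 1 was 2.23% in Astrocytes_1 and 6.01% in excitatory neurons, which should lack these transcripts and serve as the background. The part of free RNA and of unmarked doublets in this background was not tested. The median cell held 2655.5 UMIs before thinning in microglia, 3755 in Astrocytes_1 and 1274 in excitatory neurons. *Cx3cr1* was found in 81.6% of thinned microglia (90.4% without thinning), *P2ry12* in 72.0% (88.9%), *Csf1r* in 75.6% (88.1%), *C1qa* in 73.4% (90.0%) and *Tmem119* in 13.6% (41.5%).

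Levels were then taken as CPM of the UMIs summed over the microglia of each mouse. UMIs mark 3' ends and were not divided by gene length, so a level is compared between cells for the same gene, never between genes. *Cx3cr1* was at 3270, 3541 and 3154 CPM in WT 1 to 3 and at 3404, 3736 and 3764 CPM in *Fmr1*-KO 1 to 3. The groups overlapped, and the spread over all mice was small, 3478 ± 247 CPM (SD, n = 6). *P2ry12* stood at 1784, 2825 and 2282 CPM in WT and 2690, 2463 and 2143 CPM in *Fmr1*-KO microglia, with the lowest and the highest value both in WT mice. *Csf1r* ranged from 2391 CPM in WT 3 to 3610 CPM in *Fmr1*-KO 1. *C1qa* ranged from 2132 CPM in *Fmr1*-KO 3 to 2763 CPM in *Fmr1*-KO 2. *Tmem119* was at 274, 197 and 323 CPM in WT and at 272, 328 and 228 CPM in *Fmr1*-KO microglia, so that each marker was found in every mouse and its groups overlapped.

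Apart from *Mrc1*, markers of other cells were low or absent. *Ms4a7*, *Pf4* and *Lyve1* are known from border macrophages, but in these data they marked the Ms4a7_high cells, and none of the annotated border macrophages held a UMI of *Ms4a7*, *Pf4*, *Lyve1*, *Cd163* or *Mrc1* after thinning. *Ms4a7* was found in 0.370% of microglia without thinning and in 0 of 806 cells at 700 UMIs, which allows a share of up to 0.372% of cells with a UMI at that depth and sets no limit on cells that express it. *Pf4* and *Lyve1* were found in 0.744% and 0.620% of thinned microglia. *Mrc1*, the mannose receptor, was found in 25.3% of thinned microglia (50.1% without thinning), against 0.157% in Astrocytes_1 and 0.233% in excitatory neurons. It was even between mice, at 572, 481 and 555 CPM in WT and 556, 513 and 623 CPM in *Fmr1*-KO microglia. The astrocyte glutamate transporter *Slc1a3* was found in 6.95% of microglia (96.9% in Astrocytes_1) and the neuronal gene *Stmn2* in 7.94% (77.2% in excitatory neurons). Over the 14 neuronal markers, the summed level in microglia was 910 to 1347 CPM in the 3 mice with V2 beads and 175 to 252 CPM in the 3 mice with V3.8 beads, and over 15 astrocyte markers it was 1244 to 1588 CPM and 895 to 1129 CPM. Neuronal genes in microglia thus followed the bead version, and this bears on the neuronal genes in the genotype test below.

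**Figure D1:**
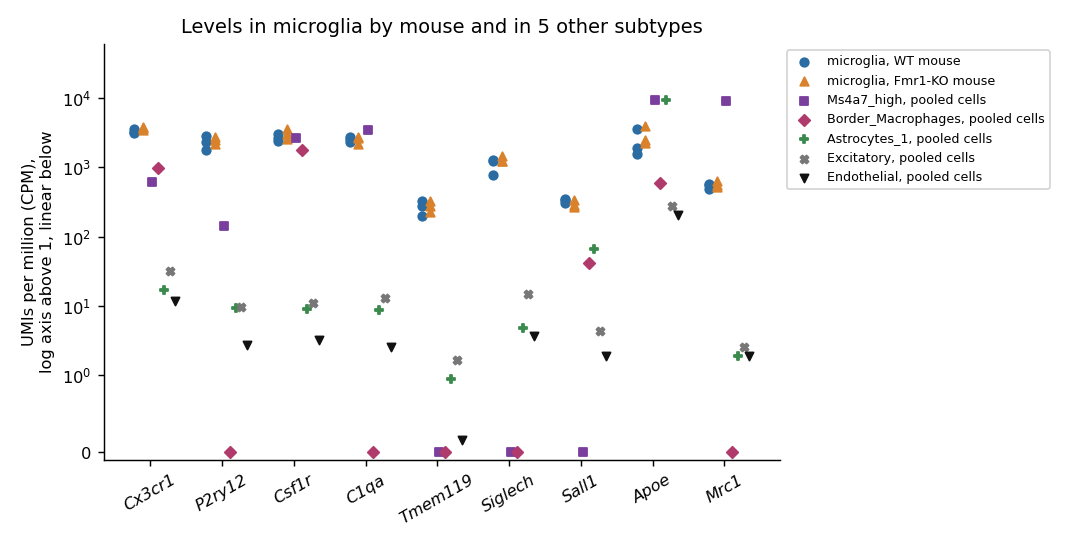
CPM (log axis above 1) of 9 genes in the microglia of each WT mouse (circles) and *Fmr1*-KO mouse (triangles), and in the pooled cells of 5 other subtypes. The points of the 6 mice lie close together for most genes, *Siglech*, *P2ry12* and *Tmem119* have their highest observed levels in microglia, *Csf1r* and *C1qa* are level with Ms4a7_high cells, and *Apoe* is higher in Astrocytes_1 and *Mrc1* higher in Ms4a7_high cells.

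To find which transcripts set microglia apart from the rest of the cortex, the level over all pooled microglia was divided by that of the next highest of the other 17 subtypes. The subtypes were defined from these counts, so these ratios are a description without a test. Of 1801 genes at 100 CPM or more in microglia, 12 (0.666%) were at least 4-fold over every other subtype and 6 (0.333%) at least 10-fold. With the other immune subtypes set aside, 156 (8.66%) were at least 4-fold and 106 (5.89%) at least 10-fold over the next subtype. In the WT mice alone the 4-fold counts were 14 and 150 of 1817 genes. These counts take each level as observed, and the rarest subtypes were shallow, with 23881 UMIs in border macrophages and 34086 in T cells. A further count, chosen after seeing the data, held each subtype at no less than its floor of 3 counts (126 CPM in border macrophages). Then 6 genes (0.333%) were at least 4-fold and 2 (0.111%) at least 10-fold over every other subtype, and outside the immune subtypes 156 (8.66%) and 90 (4.997%) were.

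Among the genes that stayed at least 4-fold over every subtype with the floors were *Siglech*, *P2ry12*, *P2ry13*, *Gpr34* and *Il1a*. *Siglech*, a sialic acid-binding lectin of microglia, was at 1237 CPM in microglia and 14.8 CPM in excitatory neurons, the next subtype by observed level (83.6-fold), and was at least 9.8-fold over border macrophages. It was at 776, 1221 and 1273 CPM in WT and at 1239, 1211 and 1432 CPM in *Fmr1*-KO microglia, with WT 1 below the other mice. *P2ry12* was 16.5-fold over Ms4a7_high cells, the next subtype. *P2ry13*, another ADP receptor, was at least 5.1-fold, *Gpr34*, a lysophosphatidylserine receptor, at least 7.9-fold and *Il1a*, encoding the cytokine interleukin-1 alpha, at least 4.3-fold over every other subtype. Other genes were at least 4-fold only by observed level, with border macrophages at 0 or 1 UMI and too shallow to show the difference. They were *Gpr84*, a receptor for medium-chain fatty acids, *Gal3st4*, a sulfotransferase, *Crybb1*, a crystallin gene, the chemokine gene *Cxcl10*, *Tmem119* and *Gmip*, a GTPase-activating protein. Over the next subtype outside the immune ones *Crybb1* was at least 23.1-fold, *Gpr84* at least 12.3-fold, *Cxcl10* 11.6-fold, *Gal3st4* at least 8.0-fold, *Tmem119* 6.6-fold and *Gmip* 4.9-fold higher. Below 4-fold by observed level came *Slc29a3*, a lysosomal nucleoside transporter (3.7), *Cx3cr1* (3.6, with border macrophages next at 963 CPM), *Sall1*, a zinc finger factor that maintains microglial identity (3.6, with Astrocytes_2 next at 86.9 CPM), and the cathepsin gene *Ctsd* (3.3).

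Outside the immune subtypes the ratios were larger. With the floors, *Mpeg1*, a pore-forming protein of macrophages, was at least 71.1-fold over each subtype that was not immune, *Tyrobp*, the adaptor of TREM2, at least 61.9-fold, *Cd53*, a leukocyte tetraspanin, at least 52.4-fold, *Spi1*, encoding PU.1, at least 24.7-fold, *Ikzf1*, the lymphoid and myeloid factor Ikaros, at least 15.8-fold and the phosphatase gene *Ptprc* (CD45) at least 9.2-fold. *C1qa* was 109-fold over Astrocytes_2. These genes were shared with the other immune cells, whereas *Siglech*, *Gpr34*, *P2ry12* and *P2ry13* were also more than 4-fold above each of them with the floors.

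The stretch of 250 bases before an annotated start of transcription is shown for 4 of these genes. *Siglech* and *P2ry13* are among the genes that stood over every other subtype. *C1qb* belongs to the C1q chains that microglia shared with macrophages, and *Sall1* is the identity factor. The sequences are those of RefSeq for build GRCm38.p6, 5' to 3' on the strand of the gene. The 6 letters GGAAGT, or ACTTCC on the other strand, are in capitals and are the core bound by ETS factors such as PU.1. *Siglech* lies on the plus strand (window chr7:55767934-55768183), and the end of its window lies inside the gene, which is annotated from chr7:55768154:
Siglech: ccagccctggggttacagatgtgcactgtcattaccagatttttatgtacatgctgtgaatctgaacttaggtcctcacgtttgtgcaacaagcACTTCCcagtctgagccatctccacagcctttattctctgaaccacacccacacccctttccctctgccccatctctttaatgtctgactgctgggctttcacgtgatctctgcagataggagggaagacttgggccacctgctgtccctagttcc
*C1qb* lies on the minus strand (chr4:136886201-136886450), next to *C1qa* and *C1qc*:
C1qb: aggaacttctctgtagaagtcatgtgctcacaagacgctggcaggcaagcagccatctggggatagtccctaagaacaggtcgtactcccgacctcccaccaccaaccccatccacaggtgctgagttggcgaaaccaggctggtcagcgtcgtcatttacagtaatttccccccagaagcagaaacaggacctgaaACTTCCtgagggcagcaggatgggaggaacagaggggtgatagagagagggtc
*Sall1* has 3 annotated starts on the minus strand, and the window with a match (chr8:89042863-89043112) lies in an intron of the longer transcripts:
Sall1: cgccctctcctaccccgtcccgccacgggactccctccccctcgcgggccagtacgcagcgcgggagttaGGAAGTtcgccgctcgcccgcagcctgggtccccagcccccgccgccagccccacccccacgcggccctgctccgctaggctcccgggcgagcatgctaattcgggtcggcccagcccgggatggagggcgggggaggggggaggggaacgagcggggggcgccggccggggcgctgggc
*P2ry13* lies on the minus strand (chr3:59210883-59211132) inside an intron of *Med12l*, a gene of the opposite strand, and its window held no match:
P2ry13: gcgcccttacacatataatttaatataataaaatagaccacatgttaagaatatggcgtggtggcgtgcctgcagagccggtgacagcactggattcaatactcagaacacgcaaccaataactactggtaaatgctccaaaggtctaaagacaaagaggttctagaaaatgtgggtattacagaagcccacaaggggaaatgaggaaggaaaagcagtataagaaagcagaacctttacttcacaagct
A match was found in 11 of the 25 genes named by level that had a window (44.0%) and in 710 of 2368 genes tested in microglia (30.0%). A gene counted here when any of its windows matched. Among single windows of all genes 6485 of 32851 matched (19.7%), a share of windows that cannot be set beside the shares of genes. A match says only that these letters are there, and other forms of the motif were not searched.

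Gene groups were described by their roles, beginning with the receptors and factors that keep microglia alive. In the group of CSF1 receptor and TGF-beta signalling and transcription factors (25 genes), 18 were at 100 CPM or more and 8 of these at least 4-fold over every subtype that was not immune. *Maf*, encoding a macrophage factor, was at 1247 ± 188 CPM (SD, n = 6 mice), against 3765 CPM in Ms4a7_high cells. *Irf8*, a factor needed by myeloid cells, was at 374 ± 39.7 CPM, and *Sall1*, at 343, 301 and 336 CPM in WT and 282, 337 and 265 CPM in *Fmr1*-KO microglia, was found in every mouse with overlapping groups. *Mef2c* and *Cebpb*, in contrast, were higher in excitatory neurons and in border macrophages, respectively.

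The ligands of these receptors were found mostly in other cells. *Il34* was at 454 CPM in fibroblasts and 286 CPM in pericytes and at 0.77 CPM in microglia. *Csf1* was at 331 CPM in microglia and 324 CPM in Ms4a7_high cells. *Cx3cl1*, encoding fractalkine, was highest in Cajal-Retzius cells (299 CPM) and excitatory neurons (264 CPM), against 5.80 CPM in microglia. *Cd200*, a brake on microglia carried by neurons, was at 681 CPM in Cajal-Retzius cells. *Tgfb2* was at 287 CPM in Astrocytes_1, whereas *Tgfb1* was at 209 CPM in border macrophages and 80.0 CPM in microglia. *Cxcl12* was at 4312 CPM in fibroblasts. The bridging ligand *Gas6* was at 1054 CPM in Ms4a7_high cells and 492 CPM in microglia, and its relative *Pros1* was at 227 CPM in microglia.

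Of the complement genes (19), 8 were at 100 CPM or more, and 7 of these were at least 4-fold over every subtype that was not immune. They include the 3 chains of C1q, which starts the classical pathway. *C1qb* was at 1625, 1643 and 1781 CPM in WT and at 2097, 1847 and 1435 CPM in *Fmr1*-KO microglia, and *C1qc* at 2184, 1837 and 1979 CPM and at 3344, 2586 and 1780 CPM, with *Fmr1*-KO 1 highest for both and overlapping groups. *C3ar1*, the receptor for the C3 fragment C3a, was at 660 ± 134 CPM, and *Itgam*, a chain of complement receptor CR3, at 331 ± 106 CPM (SD, n = 6). C3 itself was at 3.48 CPM, and *C4b*, *Cd55* and *C1s1* had no UMI among the 2586164 UMIs of microglia, which allows a level of up to 1.16 CPM. These limits cover counting error only.

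Phagocytic receptors and adaptors (28 genes) had 17 members at 100 CPM or more, 9 of them at least 4-fold over every subtype that was not immune. *Trem2*, a lipid-sensing receptor of microglia, was at 380, 699 and 535 CPM in WT and 434, 328 and 718 CPM in *Fmr1*-KO mice, and both groups held values below 450 and above 690 CPM. *Tyrobp* was at 902 ± 149 CPM, *Fcer1g*, the Fc receptor gamma chain, at 780 ± 147 CPM and *Fcgr3*, an Fc receptor, at 653 ± 113 CPM. *Sirpa*, which reads the signal CD47 on other cells, was at 1434 ± 243 CPM in microglia and 1414 CPM in Ms4a7_high cells.

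Purinergic genes (16) had only 5 members at 100 CPM or more, 4 of them at least 4-fold over every subtype that was not immune. *P2ry13* was at 506, 704 and 598 CPM in WT and at 825, 706 and 576 CPM in *Fmr1*-KO microglia. *Gpr34* was at 959 ± 147 CPM and *Entpd1*, the enzyme CD39 that breaks down ATP, at 214 ± 52.3 CPM (SD, n = 6). *P2rx7*, an ATP-gated channel, at 115 ± 23.1 CPM, was higher in Ms4a7_high cells (297 CPM).

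Chemokines, cytokines and growth factors (28 genes) had 17 members at 100 CPM or more, and 16 of these were at least 4-fold over every subtype that was not immune. *Ccl4*, a chemokine that attracts leukocytes, was at 3180, 6660 and 4432 CPM in WT and at 4637, 3892 and 5181 CPM in *Fmr1*-KO microglia. Its neighbour *Ccl3* was at 1723, 3274 and 2308 CPM and at 2260, 1621 and 3030 CPM. Both were highest in WT 2. *Ccl2*, which attracts monocytes, varied more, from 461 CPM in WT 1 to 1921 CPM in *Fmr1*-KO 3, and the cytokine gene *Tnf* was at 859 ± 281 CPM. The chemokine genes *Ccl2*, *Ccl7* and *Cxcl2* were higher in Ms4a7_high cells, at 4179, 4945 and 2774 CPM.

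Lysosomal genes (28) had 19 members at 100 CPM or more, and 10 of these were at least 4-fold over every subtype that was not immune. The cathepsin gene *Ctsb* was at 4980 ± 718 CPM, the protease gene *Lgmn* at 4036 ± 413 CPM and *Ctsd* at 3771 ± 956 CPM, the last of these with 2328 CPM in *Fmr1*-KO 2 and between 3229 and 4702 CPM in the other mice. In lipid handling (18 genes), 9 were at 100 CPM or more and 2 of these were at least 4-fold over every subtype that was not immune. *Apoe*, the apolipoprotein E gene, was at 3601, 1864 and 1562 CPM in WT and at 3885, 2250 and 2493 CPM in *Fmr1*-KO microglia. It was highest in the V2 mice WT 1 and *Fmr1*-KO 1, and its pooled level in microglia (2392 CPM) was below that of 4 other subtypes, with 9473 CPM in Astrocytes_1. *Pld4*, a phospholipase of immune cells, was at 601 ± 69.7 CPM.

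None of the 20 interferon response genes and none of the 7 genes of MHC class II reached 100 CPM. *Cd74*, the invariant chain of MHC class II, was at 102, 58.2 and 55.7 CPM in WT and at 62.1, 263 and 46.8 CPM in *Fmr1*-KO microglia, with *Fmr1*-KO 2 above the rest. In MHC class I (9 genes), 4 were at 100 CPM or more and none of these was at least 4-fold over every subtype that was not immune, with *B2m* at 1734 ± 256 CPM. Of 17 pattern recognition genes, 6 were at 100 CPM or more, all 6 of them at least 4-fold over every subtype that was not immune. *Ly86*, a partner of a Toll-like receptor homolog, was at 1221, 532 and 564 CPM in WT and 1544, 1207 and 558 CPM in *Fmr1*-KO microglia, above 1200 CPM in the V2 mice and below 600 CPM in the V3.8 mice. Leukocyte cytoskeleton and integrin genes (19) had 18 members at 100 CPM or more, 10 of them at least 4-fold over every subtype that was not immune, among them *Nckap1l*, a subunit of the WAVE complex of blood cells, at 434 ± 129 CPM.

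Microglia were also set against the Ms4a7_high cells and the annotated border macrophages. Among the other subtypes, border macrophages had the highest sum of monocyte and granulocyte genes, 24287 CPM, against 252 CPM in microglia. That list includes *Lyz2* and *Fcgr4*, which the paper used as markers of border macrophages. The identity of these cells beyond their label was not tested. Compared with the higher of Ms4a7_high cells and border macrophages, *P2ry12* was 16.5-fold, the tetraspanin gene *Cd81* 4.8-fold, *Basp1* 4.7-fold and the early gene *Egr1* 4.5-fold higher in microglia. *Sparc*, a matrix protein, was at least 28.4-fold, *Siglech* at least 9.8-fold, *Gpr34* at least 7.9-fold, *P2ry13* at least 5.1-fold and *Il1a* at least 4.3-fold higher, because border macrophages held no UMI of these genes and were counted at their floor of 3 counts. *Sparc* and *Cd81* were not particular to microglia among all subtypes, since *Sparc* was at 7505 CPM in endothelial cells and *Cd81* at 1458 CPM in pericytes.

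Within WT 3, the mouse with most Ms4a7_high cells, 39 of these cells (91431 UMIs) could be set beside 198 microglia (807509 UMIs) of the same animal. *Lyve1*, a hyaluronan receptor of border macrophages, was at 9154 CPM in the Ms4a7_high cells and 7.43 CPM in the microglia (1232-fold). *Clec10a*, a lectin, was 344-fold, *F13a1*, a coagulation factor chain, 327-fold, the platelet factor gene *Pf4* 300-fold, the scavenger receptor gene *Cd163* 254-fold and *Ccl24* 182-fold higher. *Retnla* (at least 333-fold), *Cd209f* (at least 274-fold), *Bmp2* (at least 218-fold) and *Mmp9* (at least 191-fold) were at or below 3 UMIs in the microglia. *Csf1r* (2712 and 2391 CPM) and *C1qa* (3522 and 2738 CPM) were shared by both. *P2ry12* (142 and 2282 CPM) was lower in the Ms4a7_high cells, in which *Tmem119*, *Siglech*, *Sall1* and *Olfml3* had no UMI, so that *Siglech* was at least 38.8-fold and *Sall1* at least 10.2-fold lower there. This comparison rests on 1 mouse and has no replicate.

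Variation among the microglia was measured at 700 UMIs per cell with the Fano factor, the variance of a gene's count divided by its mean, which is 1 for counts that vary by sampling alone. It was computed within each mouse and averaged with equal weights. Among 2569 genes with a mean of at least 0.05 UMIs per cell, the median Fano factor was 1.12 and 34 genes exceeded 2. The highest value was that of *Spp1* (12.2), which encodes osteopontin, followed by *Ccl4* (6.20), *Apoe* (3.87), *Ctsb* (3.595), *Il1b* (3.48), *Ccl3* (3.26), *Cxcl2* (3.15), *Ctsd* (3.07), the selenium carrier gene *Sepp1* (3.06), the actin-binding *Tmsb4x* (2.77) and *Ccl2* (2.75). *Sparc*, *Il1a*, *Ccl7*, *Cdkn1a*, *Ftl1*, *Apc*, *Tnf*, *Egr1* and *Cst3* completed the first 20. With 1 cell per barcode 19 of the 20 genes were the same, and at 1400 UMIs, reached by 579 cells, 17 were.

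Some of the variable genes varied together from cell to cell. The correlation across the thinned cells of a mouse averaged 0.63 (range over mice 0.54 to 0.67) for *Ccl4* and *Ccl3*. It was 0.60 (0.53 to 0.71) for *Ctsb* and *Ctsd*, 0.47 (0.36 to 0.62) for *Ccl2* and *Ccl7* and 0.45 (0.36 to 0.64) for *Sparc* and *Cst3*. Further pairs shared members with some of these and differed more between mice. They were at 0.40 (0.12 to 0.57) for *Ctsb* and *Sepp1* and 0.38 (0.16 to 0.66) for *Apoe* and *Ctsb*. *Apoe* and *Sepp1* were at 0.37 (0.07 to 0.71), *Ccl4* and *Ccl2* at 0.32 (0.02 to 0.53) and *Ccl3* and *Ccl2* at 0.30 (0.07 to 0.48). Cells of a mouse share their libraries, and these values are descriptions. *Spp1* behaved differently, because 1338 of its 1465 UMIs in microglia (91.3%) were in a single cluster of 27 cells. Between mice its level was 318, 38.8 and 959 CPM in WT and 1195, 78.0 and 236 CPM in *Fmr1*-KO microglia, and so varied by more than 10 times within each genotype.

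The authors' clusters divide the microglia into 8 groups of 27 to 211 cells, given here by their number. Clusters are defined by the same counts, so their leading genes are a description. Cluster 6 (211 cells) and cluster 4 (201 cells) were the largest. In cluster 4, *Ccl4* was at 8374 CPM and the calcineurin regulator gene *Rcan1* at 1127 CPM, and *Fos* was at 1114 CPM (1378 CPM in cluster 8). Its immediate early and dissociation response genes summed to 24407 CPM, more than in each of the other clusters, and the part of handling was not tested. In clusters 2 (92 cells) and 11 (78 cells), *Top2a*, a topoisomerase of dividing cells, was at 1008 and 1068 CPM and *Mki67*, the proliferation marker Ki-67, at 953 and 1024 CPM, against 31.1 and 49.3 CPM in cluster 4. These 2 clusters differed from each other in *Ccl4*, at 7760 CPM in cluster 2 and 1715 CPM in cluster 11.

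Cluster 5 (27 cells, 6, 0 and 4 in the WT and 8, 2 and 7 in the *Fmr1*-KO mice) held the *Spp1* transcripts, at 9055 CPM, with a UMI in 17 of its 27 cells and in 40 of the 783 other microglia. *Gpnmb*, a glycoprotein of phagocytic cells, was at 548 CPM, the growth factor gene *Igf1* at 453 CPM, the integrin gene *Itgax* at 244 CPM and the lipase gene *Lpl* at 1794 CPM. *P2ry12* was at 724 CPM and *Tmem119* at 6.8 CPM, and the 28 lysosomal genes summed to 58447 CPM, more than in each of the other clusters. Markers of other myeloid cells were also highest there. The border macrophage genes summed to 3364 CPM, against 616 to 1686 CPM in the other clusters, and the monocyte and granulocyte genes to 1333 CPM, against 54.4 to 351 CPM. The lysozyme gene *Lyz1* was among the leading genes of the cluster. The part of such cells in its values was not tested. *Spp1*, *Gpnmb*, *Igf1*, *Itgax* and *Lpl* are known from microglia of developing axon tracts and from disease-associated microglia.

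The remaining clusters, 3, 8 and 10, were shallow and held transcripts of other cells. In cluster 3 (109 cells, median 945 UMIs) *Stmn2* was at 553 CPM and the neuronal calmodulin-binding gene *Nrgn* at 392 CPM, while *Cx3cr1* was at 882 CPM. Its share of the microglia was 30.1%, 6.47% and 8.08% in WT and 19.8%, 18.2% and 10.7% in *Fmr1*-KO mice, higher in each V2 mouse than in each V3.8 mouse. Cluster 8 (41 cells, median 1129 UMIs) held the macrophage genes *Lyve1* (163 CPM), *Pf4* (181 CPM) and *F13a1* (199 CPM) together with the fatty acid-binding gene *Fabp5* (997 CPM). Cluster 10 (51 cells, median 1419 UMIs) kept the microglial markers, with *Cx3cr1* at 3804 CPM, *P2ry12* at 3234 CPM and *Tmem119* at 446 CPM, its highest level in the clusters. By the authors' phases 49.0% of its cells were in S or G2M. It also held the heat shock gene *Hspa1b* (394 CPM) and the myelin gene *Mbp* (145 CPM), with *Ccl4* at 342 CPM. Its oligodendrocyte lineage markers summed to 373 CPM, more than in each of the other clusters. Its neuronal markers summed to 871 CPM, against 870 CPM in cluster 8 and 1882 CPM in cluster 3. Results for genes are also given without clusters 3 and 8. The remaining 660 microglia still include cluster 10, so that setting is not free of transcripts of other cells.

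**Figure D2:**
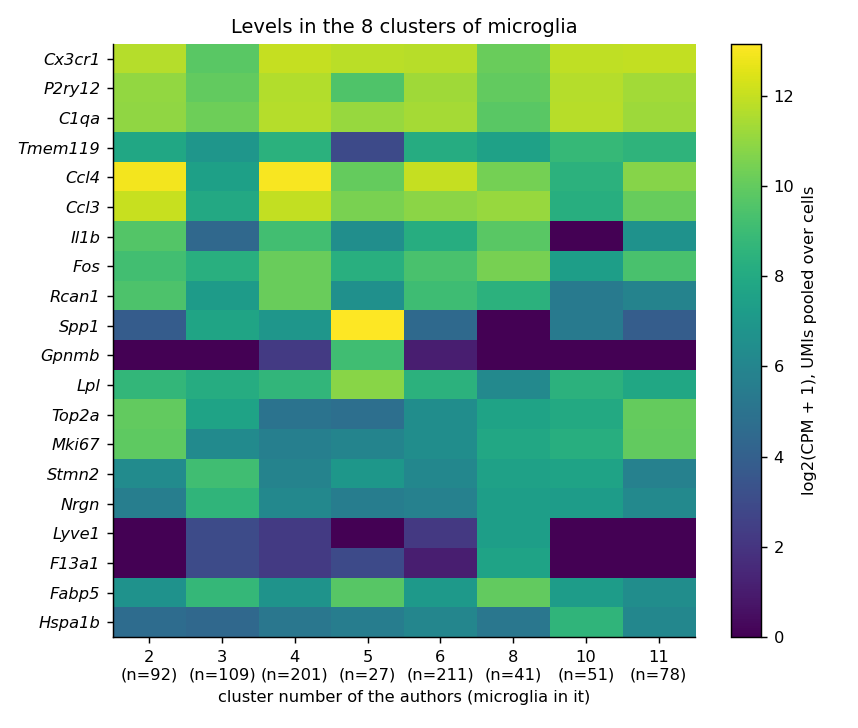
Level of 20 genes, as log2(CPM + 1) over pooled cells, in the 8 clusters of the authors that hold microglia, with the number of microglia in each. *Spp1*, *Gpnmb* and *Lpl* are brightest in cluster 5, *Top2a* and *Mki67* in clusters 2 and 11, *Ccl4* and *Rcan1* in cluster 4, *Stmn2* and *Nrgn* in cluster 3, and *Lyve1* and *F13a1* in cluster 8.

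How many microglia were dividing was read from 32 genes of the cell cycle, as the share of cells thinned to 700 UMIs that held UMIs of at least 2 of them. Microglia had the second highest share of the 18 subtypes, 306 of 806 cells (37.97%), after the ganglionic precursors (94.6%) and before the first oligodendrocyte precursor subtype (27.7%). In the postmitotic cells, which give the background, it was 7.17% in excitatory neurons and 2.27% in oligodendrocytes. Among the microglia 329 cells held none of the genes, 173 held 1, 60 held 2, 37 held 3, 46 held 4 and 161 held 5 or more. Without thinning the share was 40.9% to 67.7% over the mice.

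The share of dividing microglia was 23.9%, 41.9% and 44.9% in WT and 31.5%, 42.0% and 34.0% in *Fmr1*-KO mice. The lowest and the highest value were both in WT mice, and the groups overlapped. The means were 36.9% ± 11.4 and 35.9% ± 5.50 (SD, n = 3), a difference of -1.07 percentage points (*Fmr1*-KO minus WT; two-sided exact permutation p = 0.9, and 0.1 is the smallest p that 3 against 3 mice allow). With 1 cell per barcode the difference was -1.47 points (exact permutation p = 0.9). At 1400 UMIs per cell the sign turned, to 9.79 points (47.5% ± 14.1 and 57.2% ± 11.2, exact permutation p = 0.5, n = 3), and without WT 3 it was 2.94 points. At this number of mice neither a difference nor its absence was shown.

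**Figure D3:**
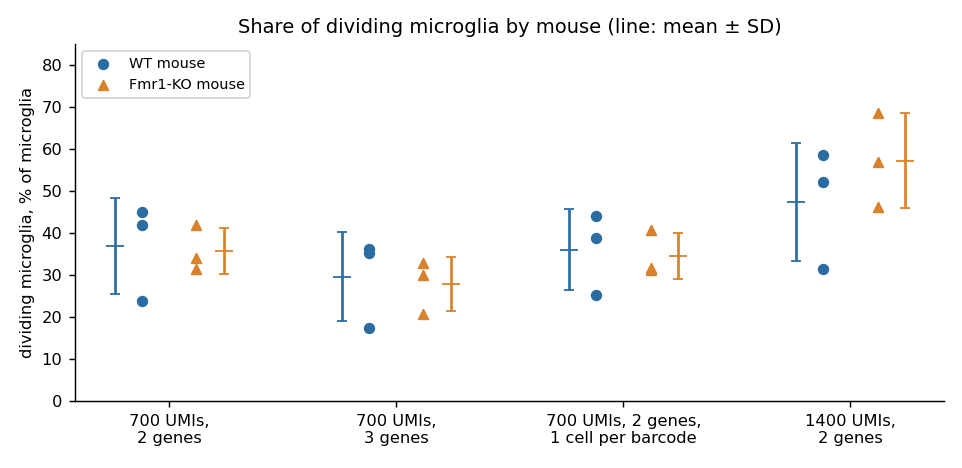
Share of dividing microglia (% of microglia) in each WT mouse (circles) and *Fmr1*-KO mouse (triangles) under 4 settings, with mean ± SD beside the points. The groups overlap under every setting, the means are close at 700 UMIs (36.9% and 35.9% with 2 genes), and at 1400 UMIs the *Fmr1*-KO mean is the higher one.

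The genotypes were compared with mice as replicates, beginning with the targeted gene. *Fmr1* (chrX:68678536-68717963, GRCm38.p6) had 11, 24 and 49 UMIs in the microglia of the WT mice and 4, 5 and 10 in those of the *Fmr1*-KO mice, or 44.9, 58.3 and 60.7 CPM against 10.3, 20.5 and 20.3 CPM. Each *Fmr1*-KO mouse was below each WT mouse, as the labels say. The means were 54.6 ± 8.49 and 17.1 ± 5.83 CPM (SD, n = 3, exact permutation p = 0.1), and the log2 fold change was -1.55 (SE 0.43, edgeR p = 0.0011, FDR = 0.998 over 6012 genes). With 1 cell per barcode it was -1.51, and in cells thinned to 700 UMIs, with 17 UMIs of the gene left over all mice, it was 0.23. In all other cells of the same mice *Fmr1* was at 68.98, 74.7 and 73.0 CPM and at 17.5, 19.9 and 16.0 CPM. The UMIs lie at the 3' end of the transcript, outside the exon that this allele disrupts, so that they measure the transcript and not the protein. Among FMRP partners, *Cyfip1*, whose product also belongs to the WAVE complex, was higher in microglia (733 CPM) than in each other subtype, with Ms4a7_high next at 333 CPM.

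Microglia made up 3.51%, 4.62% and 5.80% of the cells other than doublets in WT and 5.48%, 3.42% and 5.11% in *Fmr1*-KO mice. The 95% Wilson intervals, which cover counting error only, were 2.87 to 4.28%, 3.99 to 5.34% and 5.07 to 6.64%, and 4.57 to 6.55%, 2.79 to 4.196% and 4.37 to 5.97%. Mice of the same genotype differed by more than these intervals, and the genotypes overlapped. The means were 4.64% ± 1.148 and 4.67% ± 1.10 (SD, n = 3, two-sided exact permutation p = 1), and the edgeR test on cell numbers gave a log2 fold change of 0.16 (SE 0.42, p = 0.72, FDR = 0.87 over 18 subtypes). With 1 cell per barcode the shares were 4.85% ± 1.25 and 4.97% ± 0.963 (n = 3, exact permutation p = 0.9). Over the 17 libraries the share ran from 3.01% to 6.24%.

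**Figure D4:**
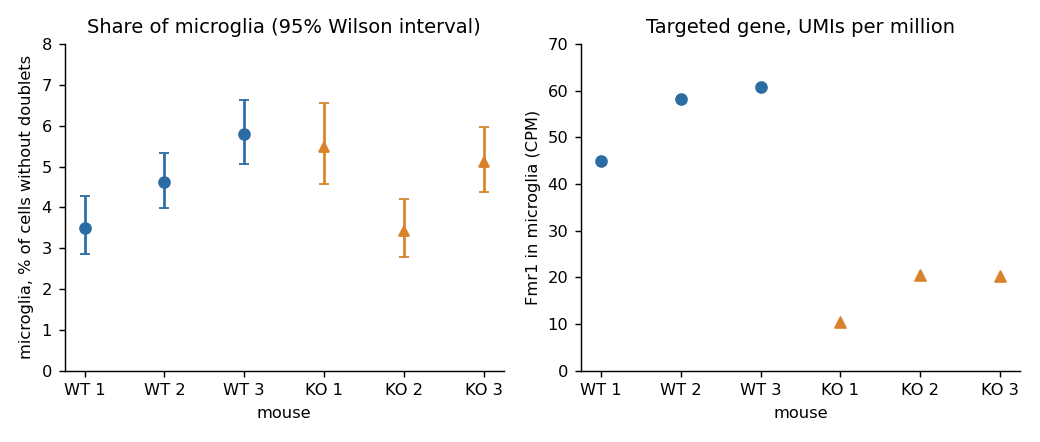
Left, microglia as % of the cells other than doublets in each mouse with 95% Wilson intervals. Right, *Fmr1* in the microglia of each mouse in CPM. The shares of WT (circles) and *Fmr1*-KO mice (triangles) overlap, between 3.42% and 5.80%, whereas *Fmr1* lies at 44.9 to 60.7 CPM in WT and at 10.3 to 20.5 CPM in *Fmr1*-KO microglia.

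For the transcriptome, edgeR was run on 3009 genes, those found in 15% or more of microglia as sums per mouse, with the bead version as a covariate, and a gene counted as changed at FDR under 0.01 together with the minimum fold change of the study. No gene passed (0 of 3009, 0%), and the lowest FDR was 0.9998. At an unadjusted p under 0.05 there were 100 genes (3.32%), 41 higher (1.36%) and 59 lower (1.96%) in *Fmr1*-KO. DESeq2 also called 0 genes, with 24 at an unadjusted p under 0.05. In 206 genes (6.85%) the values of the mice did not overlap between genotypes, 94 higher (3.12%) and 112 lower (3.72%). On simulated counts with these depths, 62.0% of 200 genes changed by 1 on the log2 scale were recovered. Of those changed by 0.5, 0% were. The simulation gave every gene the same dispersion and had no bead effect, so these shares do not carry over to the measured counts. The median SE of the measured fold changes was 0.25. The size of change that these mice can reveal in the measured counts was not tested, and *Fmr1*, at -1.55, did not pass in its own fit. The absence of calls therefore does not show the absence of changes. With 1 cell per barcode, and without clusters 3 and 8, no gene was called either, with 93 and 101 at an unadjusted p under 0.05.

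The 5 markers had log2 fold changes (*Fmr1*-KO over WT) of 0.16 (SE 0.18) for *Cx3cr1*, 0.14 (SE 0.20) for *P2ry12*, 0.08 (SE 0.18) for *Csf1r*, -0.10 (SE 0.18) for *C1qa* and -0.05 (SE 0.22) for *Tmem119*, and none was larger than its error. *Siglech* had a higher estimate (0.43, SE 0.18) and did not pass the test (edgeR FDR = 0.9998).

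The genes named next had the smallest p among those with the same sign within both batches. None of them passed the test (edgeR FDR = 0.9998 for each). Choice by p favours genes whose groups do not overlap, as in 6.85% of all genes tested, so such a split adds no support. On the higher side, *Dusp6*, a phosphatase that limits ERK signalling, was at 225, 138 and 121 CPM in WT and 334, 218 and 275 CPM in *Fmr1*-KO microglia (log2 fold change 0.76, SE 0.23). WT 1 lay above *Fmr1*-KO 2, so the groups overlapped by 1 mouse, and without *Fmr1*-KO 3 the log2 fold change was 0.27. *Gmip* was at 127, 177 and 149 CPM and at 243, 242 and 203 CPM (0.60, SE 0.21), and *Smad7*, an inhibitor of TGF-beta signalling, at 44.9, 55.8 and 52.0 CPM and at 93.1, 69.8 and 83.4 CPM (0.75, SE 0.28). For both, each *Fmr1*-KO mouse was above each WT mouse, but with cells thinned to 700 UMIs the estimates were near 0 for both. *Rgs2*, a regulator of G protein signalling (0.54), the transcriptional regulator genes *Cited2* (0.65) and *Ing1* (0.84), *Rsrp1* (0.58) and the early gene *Fos* (0.63) were the other genes with higher estimates. Without *Fmr1*-KO 3 the estimate was 0.29 for *Fos* and 0.46 for *Ing1*.

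On the lower side, *Nup50*, a nucleoporin, was at 114, 87.4 and 79.3 CPM in WT and 62.1, 41.1 and 40.7 CPM in *Fmr1*-KO microglia (log2 fold change -1.05, SE 0.29). *Il1a* was at 482, 660 and 705 CPM and at 300, 357 and 448 CPM (-0.57, SE 0.18), and *Map3k7*, the kinase TAK1 downstream of interleukin-1 and TGF-beta receptors, at 77.6, 89.8 and 108 CPM and at 38.8, 65.7 and 38.7 CPM (-1.03, SE 0.31). Each *Fmr1*-KO mouse was below each WT mouse for these 3 genes. *Fasn*, the fatty acid synthase gene (-0.80), and *Fbxo11*, a ubiquitin ligase subunit (-0.94), did not overlap either. When cells were thinned, *Fasn* turned to 0.36. The groups of *Il1a* overlapped in cells thinned to 700 UMIs. Its means there were 0.24, 0.44 and 0.44 UMIs per cell in WT and 0.23, 0.17 and 0.35 in *Fmr1*-KO mice. Over all fits the log2 fold change of *Il1a* lay between -0.73 and -0.29. *Csf2ra*, the GM-CSF receptor alpha chain, was at 188 CPM in WT 1 and between 57.0 and 79.3 CPM in the other mice (-0.94, and -0.34 without WT 1). *Sgk1*, a kinase regulated by glucocorticoids, was at 249, 107 and 142 CPM in WT and 199, 160 and 42.7 CPM in *Fmr1*-KO microglia. Its groups overlapped, and its log2 fold change was -0.92, but -0.31 with no batch term and -0.50 without *Fmr1*-KO 3. The neuronal gene *Nrgn* was at 302, 38.8 and 26.0 CPM in WT and 116, 213 and 12.2 CPM in *Fmr1*-KO microglia (-1.03, and -0.01 with no batch term), higher in each V2 mouse than in each V3.8 mouse, like the sum of the neuronal markers, and the part of neuronal RNA in it was not tested.

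**Figure D5:**
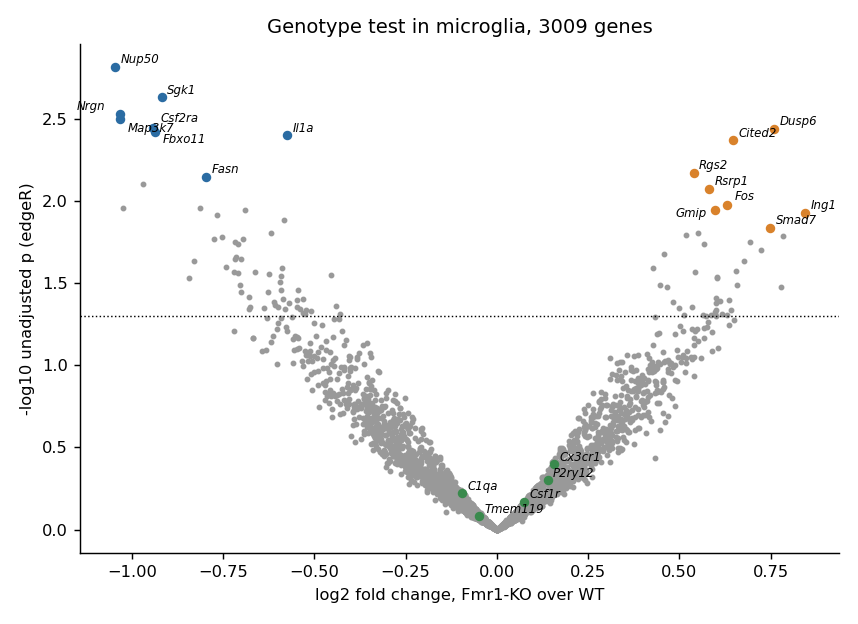
Log2 fold change (*Fmr1*-KO over WT) and -log10 unadjusted edgeR p of the 3009 genes tested in microglia. The dotted line marks an unadjusted p of 0.05, and the named genes with higher (orange) and lower (blue) estimates and the 5 markers (green) are labelled. No gene passed FDR under 0.01, and the markers lie close to a fold change of 0.

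Gene groups were read by the same fit, beside a median log2 fold change of 0.00 over all 3009 genes (1506 above 0 and 1503 below). No member of any group was called. Microglial identity genes had 13 of 19 estimates above 0 (median 0.12, 1 at an unadjusted p under 0.05), complement genes 5 of 8 (median 0.07), phagocytic genes 11 of 17 (0.04), CSF1 receptor and TGF-beta signalling and transcription factors 9 of 23 (-0.03) and chemokines and cytokines 10 of 20 (0.00). Lysosomal genes had 15 of 24 above 0 (0.05), purinergic genes 5 of 6 (0.13), lipid handling genes 6 of 9 (0.11), genes of axon tract and disease-associated microglia 4 of 8 (0.04), pattern recognition genes 2 of 8 (-0.08) and cytoskeleton and integrin genes 14 of 19 (0.11, with *Was* and *Lsp1* at an unadjusted p under 0.05). MHC class I genes had 3 of 5 (0.05), ribosomal protein genes 48 of 81 (0.01) and respiratory chain genes 37 of 60 (0.05). Without clusters 3 and 8, ribosomal protein genes had 67 of 81 above 0 (median 0.12) and respiratory chain genes 40 of 60 (0.14), and with no batch term ribosomal protein genes had 32 of 81 (-0.03). No member of MHC class II or of the interferon response passed the filter on low counts.

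Among the groups with at least 5 tested genes, the one furthest above the median was that of immediate early and dissociation response genes, with 18 of 21 estimates above 0 and a median of 0.19. *Fos* was at 625, 769 and 404 CPM in WT and 734, 846 and 1060 CPM in *Fmr1*-KO microglia, overlapping in *Fmr1*-KO 1. *Egr1* was at 1845, 2534 and 1522 CPM and at 1280, 2385 and 2820 CPM, with both extremes in *Fmr1*-KO mice. *Fos* and *Klf4* were at an unadjusted p under 0.05, and none was called. These genes also respond to tissue dissociation, and the part of handling was not tested. Cell cycle genes had 6 of 20 estimates above 0 and a median of -0.14, which turned to 0.17 in cells thinned to 700 UMIs, with *Cenpa*, a centromere histone, at an unadjusted p under 0.05. The 5 border macrophage genes that passed the filter had a median of -0.25, with 2 above 0, the 5 astrocyte genes had a median of -0.19 with 0 above 0, which was 0.09 with 3 above 0 in thinned cells, and the 3 neuronal genes had a median of -0.75, with *Nrgn* and *Mapt* at an unadjusted p under 0.05.

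Whether the genotype effect in microglia differed from that in the other cells of the same mice was tested with a genotype by cell group term. No gene passed (0 of 3009, 0%, lowest FDR 0.18 by edgeR), and 144 genes (4.79%) were at an unadjusted p under 0.05. On simulated counts this test recovered 24.5% of 200 genes changed in microglia by 1 on the log2 scale. The genotype test had recovered 62.0%, and the limits of that simulation apply here too. The 3009 genes were those of the genotype test, chosen by detection in microglia and not by their level in the other cells. The smallest p belonged to genes of microglia themselves. For *Ccl4* the difference in log2 fold change (microglia minus other cells) was 1.95 (SE 0.33, edgeR FDR = 0.18), for *Ccl2* 1.90, for *Il1b* 1.51, for *Fcgr3* 1.95 and for *Trem2* 2.09. In the other cells these transcripts were rare, with *Ccl4* at 20.5, 59.6 and 17.3 CPM in WT and 12.2, 5.25 and 7.24 CPM in *Fmr1*-KO mice, and *Trem2* at 1.82, 7.25 and 2.37 CPM and 0.93, 0.37 and 0.97 CPM. For both genes each *Fmr1*-KO mouse was below each WT mouse in the other cells, whereas in microglia the genotypes overlapped. *Trem2* had only 17, 81 and 47 UMIs in the other cells of the WT mice and 7, 3 and 13 in those of the *Fmr1*-KO mice. A large term for such genes therefore does not show a change in microglia. The other cells included the Ms4a7_high cells, 39 of which were in WT 3, and the part of such macrophages and of free microglial RNA was not tested. Without WT 3 *Ccl4* was called (FDR = 0.0039 by edgeR). On the lower side *Arhgdib* (-0.83), *Sgk1* (-1.02), *Nup50* (-1.14), the tubulin gene *Tubb4b* (-0.88) and the tropomyosin gene *Tpm4* (-0.64) led.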

How the data were processed

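The authors aligned the reads to mm10 with TopHat2 2.0.14, counted UMIs per RefSeq gene with ESAT, removed barcodes under 700 UMIs, erythrocytes and part of the doublets, clustered the cells in 2 rounds and deposited raw UMI counts with an annotation of each cell. Of the deposited columns, the annotation gave mouse, library, subtype, cluster and doublet mark, and the authors' size factors, a ratio per cell, were not used. No column was left out as belonging to no sample (0). Doublets marked by the authors (1113 cells) were excluded, and no other doublet caller was run. The gene that the labels target, *Fmr1*, had a UMI in 9.75% of microglia and fell below the filter, so its fit used the 6012 genes that pass filterByExpr.

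Counts were summed per mouse over microglia and tested with edgeR 4.0.16 (quasi-likelihood, TMM, bead version as covariate, Benjamini-Hochberg) in R 4.3.3, with DESeq2 1.42.0 as an alternative. The difference test had the mouse as a block. Whether samples are separate litters is not given in the sources used here, so p-values measure the spread between these mice. Exact permutation tests were two-sided. Python 3.11.15 (scipy 1.17.1, pandas 2.3.3, numpy 2.4.6) was used for all else. The count tests were tested on simulated data.

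Genes named are the 5 markers and *Fmr1*, in each list up to 4 members with the highest level, by level the 20 with the largest ratio to the next subtype and 10 each against macrophages and in WT 3, the 20 with the largest Fano factor, and by smallest p up to 8 in each direction of the genotype test (same sign within both batches) and 5 in each direction of the difference test. Some of them are not reported here. Other members given were chosen after their values were seen. The members and lists were chosen with earlier results of these data known. Symbols are those of the counts, and coordinates those of RefSeq for GRCm38.p6. Lrrc33, Arhgap45, Chi3l3, Mpo, Trbc2 and Xist did not match a row, and no mitochondrially encoded gene did.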

Additional observations from a re-analysis of the deposited data

How the results depend on the processing

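The genotype test of genes called 0 genes with no batch term, other scalings, filterByExpr, FDR under 0.05, DESeq2, thinned cells, each mouse left out (0 to 0), 1 cell per barcode and without clusters 3 and 8 (the last 2 chosen after seeing the data). With no filter on low counts it called 2 of 13803, *Hspa1b* (2.29 on the log2 scale) and *Acrbp* (-5.04). The difference test called 0 to 1 with a mouse left out (*Ccl4* without WT 3) and 18 with no filter, among them *C1qa*, *C1qb*, *C1qc*, *Csf1r*, *Ccl3*, *Ccl4* and *Trem2*. The log2 fold change of the number of microglia was -0.056 with TMM scaling and between -0.030 and 0.34 with a mouse left out, below 0 without WT 1 (-0.026) or *Fmr1*-KO 1 (-0.030). *Fmr1* stayed between -1.68 and -1.39 with a mouse left out and was 0.23 in cells thinned to 700 UMIs, where 17 UMIs were left. The difference in dividing microglia was 9.79 points at 1400 UMIs and between -7.57 and 2.94 points with a mouse left out. Genes over 4-fold against each subtype numbered 12, at 10-fold 6 and with a floor of 3 counts in each other subtype 6 (chosen after seeing the data), and genes with a Fano factor over 2 numbered 34 and at 1400 UMIs 84.

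Of 336 estimates of the 21 named genes over the alternatives, 327 kept their direction, none was called and 9 turned sign: in thinned cells *Smad7* (-0.0014), *Fasn* (0.36) and *Tmem119* (0.32), and, with a mouse left out, *P2ry12* (-0.18 to 0.48, below 0 without WT 1), *C1qa* (-0.19 to 0.0020, above 0 without *Fmr1*-KO 3) and *Tmem119* (-0.17 to 0.16, above 0 without WT 3 or *Fmr1*-KO 3), and *Tmem119* with no batch term (0.049) and with the replicate block (0.055). The cause was not tested.

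Mice share replicate numbers across genotypes, but nothing in the labels pairs them. The correlations of same-numbered mice about their group means were 0.30, -0.21 and 0.38. Over all pairs of a WT and an *Fmr1*-KO mouse, they were 0.26 to 0.38 with the same bead version. With different bead versions they were -0.48 to -0.18, so their sign went with the bead version. With the replicate number as a block in place of the bead version 0 genes were called, with 85 at an unadjusted p under 0.05, and the log2 fold change was -1.66 for *Fmr1* and 0.01 for the number of microglia.

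With 3 mice a group and an SE of about 0.25, small differences and lists with low counts were beyond reach.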

Other observations

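Markers of further cell types were low in the microglia of every mouse. Summed over their lists, they were at 26 to 51 CPM for lymphocytes (11 genes), 85 to 186 CPM for the oligodendrocyte lineage (10 genes), 20 to 77 CPM for endothelial cells (10 genes) and 6 to 29 CPM for pericytes and fibroblasts (10 genes). Monocyte and granulocyte genes (10) summed to 314, 187 and 160 CPM in WT and 533, 333 and 169 CPM in *Fmr1*-KO microglia, above 300 CPM in the V2 mice and below 200 CPM in the V3.8 mice, and 5 of the 10 had no UMI. Ribosomal protein genes summed to between 126054 and 163221 CPM and respiratory chain genes to between 10427 and 12480 CPM, with the genotypes overlapping in both. The 8 genes of the FMRP family and its partners summed to between 1280 and 1487 CPM.

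*Hspa1b*, an inducible heat shock gene, was at 12.2, 9.71 and 8.67 CPM in WT and at 279, 115 and 10.2 CPM in *Fmr1*-KO microglia. The 2 high mice were those with V2 beads, whereas the WT mouse with V2 beads was low. The gene was named after its values were seen.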
